A study of Mus musculus with 4 samples.

Results

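Neuro-2a (N2a) cells are a mouse neuroblastoma line, a tumour line of the sympathetic nervous lineage that grows in culture and carries part of the neuronal gene programme. They were 1 of 3 mouse lines in a mixing experiment, in which single cells were held in semi-permeable capsules, their polyadenylated RNA was barcoded by split-pool rounds and the lines were told apart by the first barcode, BC1. N2a cells and NIH/3T3 fibroblasts had been grown in DMEM with 10% fetal bovine serum and penicillin-streptomycin. Mouse embryonic stem cells of the E14TG2a line (mESC) had been kept on gelatin in medium with 15% serum, 1000 U/ml LIF, 3 µM CHIR99021 and 1 µM PD0325901, the last pair being inhibitors of GSK3 and MEK. N2a cells were taken as the barcodes of the N2a matrix with at least 1000 unique molecular identifiers (UMIs, counts of captured RNA molecules) and at most 20% of UMIs in mitochondrial genes. This gave 2323 N2a cells of 6497 cells in all 3 lines under the same filter, with 2037 NIH/3T3 and 2137 mESC cells. Each line was 1 sample, pooled with the others after the first barcode, so no test between lines was possible and no p-value is given. A difference between lines cannot be told apart from a difference between their cultures or wells.

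The N2a cells held 17955221 UMIs, 86.9% of all UMIs in their matrix. The median N2a cell had 6185 UMIs (lowest 1012, highest 47407) and 3157 genes, against medians of 4863 UMIs and 2674 genes in NIH/3T3 and 4803 UMIs and 2600 genes in mESC. Mitochondrial genes took a median of 2.11% of UMIs in N2a cells, beside 2.47% for NIH/3T3 and 2.03% for mESC. Of the 2330 N2a barcodes with enough UMIs, 7 were removed for their mitochondrial share. The barcode just below the UMI limit had 987 UMIs, and the mitochondrial shares next to the 20% limit were 16.95% inside and 20.96% outside. The cells lay in 32 wells, each with its own BC1 sequence, with between 52 and 91 N2a cells a well (median 71). Wells split 1 sample and are not replicates: they are used below to show technical spread only. No barcode had UMIs in both the N2a matrix and that of another line, which the split by BC1 fixes in advance.

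Sympathetic neurons and their tumours arise from the neural crest under transcription factors such as Hand2, Phox2a and Gata2/3, which switch on the enzymes and transporters of noradrenaline. Their cells also build large dense-core vesicles, which are packed with granins, and synaptic vesicles that release transmitter on calcium entry.

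The label was checked against 5 markers. Levels are counts per 1000000 UMIs (CPM), summed over the cells of a line, with exact Poisson 95% intervals that cover counting error only. Hand2, the basic helix-loop-helix factor of sympathetic precursors, stood at 404 CPM in N2a (interval 395 to 414), 1.11 in NIH/3T3 and 1.79 in mESC. In single wells it lay between 332 and 490 CPM in N2a (median 404) and reached at most 5.01 in NIH/3T3 and 10.2 in mESC. Phox2a, its homeodomain partner in the lineage, stood at 126 CPM in N2a (121 to 131), 0.342 in NIH/3T3 and 1.14 in mESC. Syt6, a synaptotagmin, stood at 496 CPM (485 to 506) against 1.11 and 0.974. Chgb, the granin chromogranin B, stood at 317 CPM (309 to 326) against 1.03 and 1.14. For all 5 genes every N2a well was above every well of the other lines. Tubb3, the neuronal beta-tubulin, was less exclusive, with 229 CPM (222 to 236) in N2a, 9.15 in NIH/3T3 and 37.6 in mESC.

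A Hand2 UMI was seen in 81.7% of N2a cells (exact binomial 95% interval 80.0 to 83.2), 0.638% of NIH/3T3 cells and 0.936% of mESC cells. The shares for Phox2a were 51.6% (49.6 to 53.7), 0.196% and 0.608%. Whether the low shares in the other lines, at somewhat lower median depths, came from free RNA, misassigned reads or low expression in those cells was not tested. Markers of other cell types were then read in N2a. Of 12 fibroblast markers, 8 were under 1 CPM, among them Col1a1 at 0.0557 CPM (28.6 in NIH/3T3) and Twist1, and the list summed to 578 CPM in N2a against 6127 in NIH/3T3. Vim, an intermediate filament many cultured cells make, was its most abundant member in N2a with 440 CPM, and Fn1, fibronectin, had 113. The 12 pluripotency markers summed to 40.2 CPM in N2a and 6459 in mESC. Klf4 was the highest of them in N2a at 12.0 CPM, and Pou5f1, the defining factor, had 0.223 against 57.8 in mESC. Schwann and glial markers summed to 17.7 CPM, with Sox10, their defining factor, at 0.167 and Cnp highest at 10.0. Of 10 markers of blood, endothelial and epithelial cells, 8 were under 1 CPM. The others were Cd68, a macrophage marker, at 1.56 CPM, and Pecam1, an adhesion molecule of endothelial cells, at 95.3 in N2a, 4.62 in NIH/3T3 and 189 in mESC.

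The promoters of Hand2, Phox2a, Chgb and Syt6, the markers that were also N2a-restricted by the rule given below, are shown because these genes carry the N2a label. Each runs from 250 bases before to 50 after the annotated start, read from the GRCm39 genome 5′ to 3′ on the gene's strand. Capitals mark matches on either strand to the letters TAATTA, known as a homeodomain core, to the E-box CATCTG or to AGATAA, which GATA factors bind, and in Hand2 the first and the last of these overlap in a single run of capitals.
Hand2 promoter, chr8:57773761-57774060 (+ strand): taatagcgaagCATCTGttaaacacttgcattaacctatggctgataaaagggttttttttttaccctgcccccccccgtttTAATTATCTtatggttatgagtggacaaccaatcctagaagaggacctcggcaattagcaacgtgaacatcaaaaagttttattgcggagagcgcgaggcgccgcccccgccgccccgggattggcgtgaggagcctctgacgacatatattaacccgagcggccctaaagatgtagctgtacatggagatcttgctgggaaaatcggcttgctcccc
Syt6 promoter, chr3:103482234-103482533 (+ strand): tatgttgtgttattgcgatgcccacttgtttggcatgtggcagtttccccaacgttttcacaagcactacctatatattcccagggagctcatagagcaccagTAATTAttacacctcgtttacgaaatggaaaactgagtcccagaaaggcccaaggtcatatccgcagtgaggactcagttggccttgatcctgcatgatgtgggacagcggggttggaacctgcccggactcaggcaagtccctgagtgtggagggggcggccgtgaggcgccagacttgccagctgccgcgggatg
Chgb promoter, chr2:132622214-132622513 (+ strand): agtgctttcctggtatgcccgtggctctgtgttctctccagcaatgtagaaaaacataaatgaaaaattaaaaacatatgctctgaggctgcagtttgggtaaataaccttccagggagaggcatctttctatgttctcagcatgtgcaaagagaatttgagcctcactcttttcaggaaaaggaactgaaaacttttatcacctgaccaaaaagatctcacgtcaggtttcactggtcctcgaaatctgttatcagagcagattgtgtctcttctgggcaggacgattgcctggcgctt
Phox2a promoter, chr7:101467264-101467563 (+ strand): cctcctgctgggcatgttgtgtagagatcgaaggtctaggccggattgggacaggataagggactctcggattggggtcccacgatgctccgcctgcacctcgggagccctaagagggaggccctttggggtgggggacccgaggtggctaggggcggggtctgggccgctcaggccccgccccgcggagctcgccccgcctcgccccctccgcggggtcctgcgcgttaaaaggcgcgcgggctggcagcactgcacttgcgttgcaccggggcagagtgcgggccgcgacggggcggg

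Hand2 held all 3 motifs, Syt6 held TAATTA, and the Chgb and Phox2a windows held none of these letters. Among 8 further genes, Clvs1, Alk and Xist held at least 1 motif, and Gm30835, Unc5c, Cntn3, Pde10a and Slc47a1 held none. Among the 78 N2a-restricted genes with an annotated start (defined below), TAATTA was in 7.69% of windows, CATCTG in 11.5% and AGATAA in 14.1%. Over all 32940 windows of the same length the shares were 6.85%, 18.3% and 12.8%, and over the 11333 genes compared between lines 3.87%, 13.9% and 9.12%. With 6, 9 and 11 genes behind the first shares, these are descriptions and not sites.

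N2a cells spread their RNA over many genes. The 10 most abundant genes took 3.20% of UMIs and the 100 most abundant 14.6%, and 1079 genes made up the first 50%. Mitochondrial genes took 2.28% and ribosomal protein genes 7.22%, against 9.49% ribosomal in NIH/3T3 and 8.31% in mESC. The highest of each class were mt-Atp6 at 3620 CPM, mt-Cytb at 3445 and mt-Co3 at 3125, and Rpl6 at 1785, Rps29 at 1751 and Rpl23 at 1750.

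Outside those classes, the most abundant transcript was Pde10a, a cyclic nucleotide phosphodiesterase best known from striatal neurons. It had 3762 CPM in N2a (3734 to 3791) but 18.1 in NIH/3T3 and 6.57 in mESC, and between 2768 and 4537 CPM in single N2a wells (median 3594). Gm30835, an annotated long noncoding RNA on chromosome 5 (GRCm39, chr5:7730108-8014301), came next at 3496 CPM (3468 to 3523), against 4.36 and 4.46, with wells between 2938 and 4117 CPM in N2a. Unc5c, a netrin receptor of growth cones, had 2838 CPM against 11.9 and 3.33. Alk, the receptor tyrosine kinase that is a known neuroblastoma oncogene, had 1866 CPM (1846 to 1886) in N2a, 75.2 in NIH/3T3 and 6.49 in mESC, and lay between 1521 and 2272 CPM in single N2a wells. Dlc1, a GTPase-activating protein, had 1694 CPM against 4.70 and 158. Tcf4, a basic helix-loop-helix factor, had 1625 CPM against 251 and 265. Of the 15 most abundant, 6 were thus N2a-high by the rule given below and 9 were not. The others included housekeeping transcripts: Hsp90ab1 (2981 CPM), Actb (2903), Ptma (2329), Npm1 (1979), Eef1a1 (1849) and Ncl (1748) were within 2-fold of both other lines. Cdk8, a Mediator kinase, had 3084 CPM against 2174 and 2254, and Cmss1 1936 against 838 and 824. The nuclear RNA Malat1 was lower in N2a, at 2127 CPM against 6891 and 4656.

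Levels between genes were also ranked as CPM per kb of the longest annotated transcript, a spliced length. Whether introns were counted is not given in the sources used here, and this scale does not remove such counts. On that scale 7 of the 15 stayed among the first 15: Cmss1 at 1621 CPM per kb, Ptma at 1359, Gm30835 at 1346, Actb at 1287, Hsp90ab1 at 697, Cdk8 at 631 and Eef1a1 at 575. Pde10a had 475 CPM per kb, Unc5c 292 and Alk 258. Small-protein genes such as Mif and Atp5k came in, and so did Fau, which the ribosomal protein class, set by gene symbol, did not take in.

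Genes with at least 10 CPM in at least 1 line, 11366 of 33565, were compared. A gene was called N2a-high where its CPM + 1 in N2a was at least 4 times that in both other lines, and N2a-low where both other lines had at least 4 times its level. There were 657 N2a-high genes (5.78% of those compared) and 413 N2a-low genes (3.63%). With a pseudocount of 5 CPM in place of 1 CPM the counts were 442 and 210, and with a minimum of 50 CPM 328 and 253. N2a-high genes took 9.24% of N2a UMIs, 0.414% of NIH/3T3 and 0.573% of mESC UMIs. The median log2 ratio over all genes compared was 0.03 against NIH/3T3 and 0.04 against mESC. Across genes, log2 levels in N2a gave Pearson's r of 0.578 with NIH/3T3 and 0.563 with mESC, beside 0.574 between those lines; genes are not independent replicates. Long noncoding RNAs were 12.0% of the N2a-high genes with an annotation and 4.43% of the genes compared. The median N2a-high gene spanned 47804 bases, the median N2a-low gene 72874 and the median gene compared 30662.

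**Figure D1:**
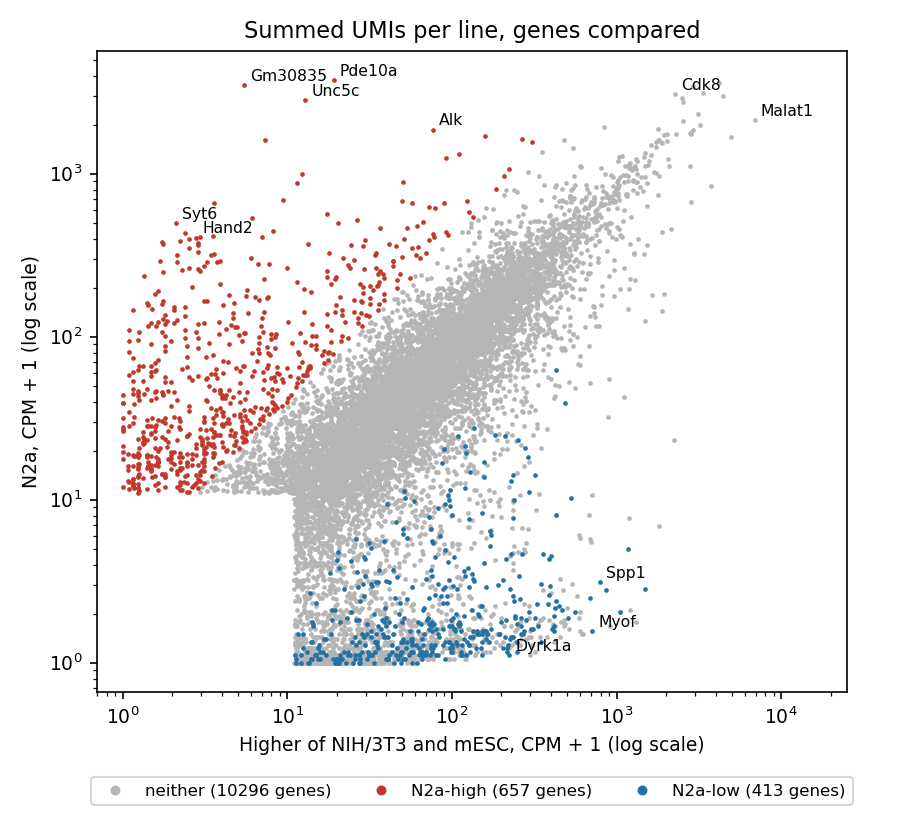
Each point is 1 of the 11366 genes compared, with CPM + 1 in N2a on the vertical axis and the higher of NIH/3T3 and mESC on the horizontal axis, both on log scales. The 657 N2a-high genes (red) reach up to Pde10a at 3762 CPM, and the 413 N2a-low genes (blue) lie mostly near the floor of the vertical axis.

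A stricter rule, at least 50 CPM and CPM + 1 at least 50 times both other lines, kept 79 genes, 1.70% of the 4643 genes with that level in N2a, and 23 genes with a pseudocount of 5 CPM in place of 1 CPM. These N2a-restricted genes had a median of 235 CPM in N2a and together took 3.08% of its UMIs, against 0.0104% and 0.0145% in the other lines. The rule chose them for this difference, so their levels are a description. In all 25 genes with the largest ratio, the lowest of the 32 N2a wells was above the highest well of either other line.

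The order of ratios depends on the pseudocount, and with 0.1 CPM in place of 1 CPM 15 of the 25 genes stayed among the first 25. The largest ratio belonged to Gm30835, 640 times the higher other line on the CPM + 1 scale. Next came Syt6 (235), Unc5c (220), Cntn3 (220), Clvs1 (219) and Slc15a5 (211), then Pde10a (197), Rgs7 (183), Myt1l (183) and Cacng3 (176). Cntn3, a contactin of axons, had 1612 CPM in N2a, 5.13 in NIH/3T3 and 6.33 in mESC. Clvs1, a lipid-binding protein of neuronal vesicles, had 379 CPM against 0.427 and 0.73. Rgs7, a regulator of G protein signalling in neurons, had 658 CPM against 0.94 and 2.60. Myt1l, a neuronal zinc-finger factor that holds non-neuronal genes off, had 435 CPM against 0.855 and 1.38. Among the vesicle genes were Syn2, a synapsin, at 387 CPM, and Scg3, a granin-family protein, at 248, each at or under 1.22 CPM in the other lines. Cacng3, an AMPA receptor regulator, had 235 CPM, and Slc24a2, a sodium-calcium exchanger, 347. Esr1, the estrogen receptor alpha, had 406 CPM against 1.03 and 1.95, and lay between 220 and 558 CPM in single N2a wells. Ppp2r2b, Plxna4 (a semaphorin receptor), Ptn (pleiotrophin) and Gpm6b filled the list with between 181 and 413 CPM, beside Cfap97d2 at 395 and the noncoding Gm48626 at 145.

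**Figure D2:**
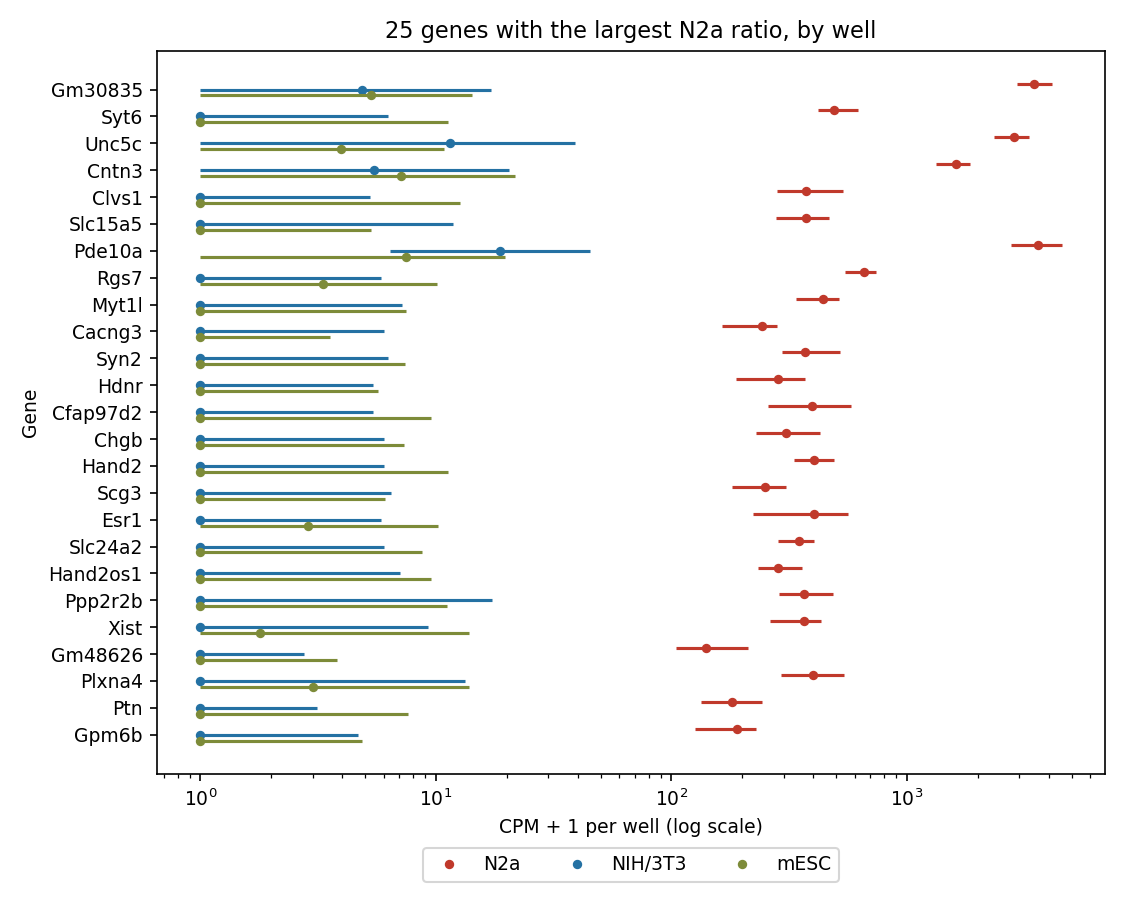
For the 25 genes with the largest ratio, points give the median of 32 wells and lines the lowest to highest well in CPM + 1 on a log scale, for N2a (red), NIH/3T3 (blue) and mESC (green). The N2a ranges lie to the right of both others for all 25 genes, from Gm30835 at the top to Gpm6b.

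Neighbours shared the pattern around Hand2 on chromosome 8. Hand2 (GRCm39, chr8:57774011-57777677, plus strand) lies inside the span of Hand2os1, a noncoding gene on the minus strand (chr8:57734152-57782056), and Hdnr, another noncoding gene, starts downstream (chr8:57784724-57868145). Hand2os1 had 286 CPM in N2a against 0.94 and 1.14, and Hdnr 291 against 0.684 and 0.649. The sources used here do not say whether counting used strand, so the reads of Hand2 and Hand2os1 may not be separable where they overlap. Xist, the noncoding RNA of the inactive X chromosome, had 366 CPM in N2a (357 to 375) against 0.855 in NIH/3T3 and 1.87 in mESC, and lay between 261 and 430 CPM in single N2a wells. A Xist UMI was seen in 76.6% of N2a cells (74.8 to 78.3). Of 7 Y chromosome genes, 6 were under 1 CPM in N2a: Uty had 0.167 CPM in N2a, 0.171 in NIH/3T3 and 114 in mESC. Ddx3y had 5.51 CPM in N2a and 5.56 in NIH/3T3, against 85.1 in mESC.

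Counts of list members called are read against the genes compared, of which 5.78% were N2a-high and 3.63% N2a-low, and medians against 0.03 and 0.04 over all of them. Of 24 transcription factors of the sympathoadrenal lineage, 10 were N2a-high, 2 N2a-low, 4 neither and 8 under 10 CPM in every line. The median log2 ratio of the 16 compared was 4.36 against NIH/3T3 and 3.36 against mESC. Beside Hand2 and Phox2a, Lmo1, a neuroblastoma-linked co-factor, had 121 CPM against 0.513 and 2.11. Sox4 had 227 CPM, with 94.2 in NIH/3T3. Named after their values were seen, Tbx20 (69.6 CPM), Sox11 (55.2), Gata2 (38.6), Isl1 (27.5) and Tbx2 (26.2) were N2a-high as well. Relatives of the leading factors were low, with Hand1 at 0.111 CPM and Gata3 at 3.84. Mycn, the oncogene amplified in many human neuroblastomas, had 6.01 CPM in N2a and 57.9 in mESC, while Myc had 60.5. Meis2 was N2a-low, at 13.1 CPM against 89.0 and 321.

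Neuroblastoma cells are described as adrenergic or mesenchymal in state. Of 16 adrenergic-state genes, most of them also in the list above, 7 were N2a-high, 1 was N2a-low and 7 were under the level compared, with medians of 4.65 and 3.36 over the 9 compared. Of 20 mesenchymal-state genes 17 were compared, with medians of -2.10 and -0.27, and none was N2a-high and 3 were N2a-low, among them Yap1, a Hippo pathway co-activator, at 0.947 CPM against 77.0 and 146. Maml2 and Vim were the mesenchymal-list genes with the highest N2a levels, at 274 and 440 CPM. Of the mesenchymal list, Vim, Fn1, Twist1 and Prrx1 are also fibroblast markers.

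Of 14 noradrenaline genes 8 were compared, and 2 were N2a-high, 1 was N2a-low and 5 were neither, with a median log2 ratio of 0.53 against both lines. Slc18a2, the vesicular monoamine transporter, had 148 CPM in N2a (wells between 106 and 180), 0.513 in NIH/3T3 and 0.325 in mESC. Gch1, which makes the cofactor of tyrosine hydroxylase, had 123 CPM against 0.94 and 2.84. The enzymes themselves were low: Th, the rate-limiting step, had 4.96 CPM and a UMI in 3.31% of cells, Dbh 0.891 CPM and Ddc 0.835. Pnmt and Slc6a2, the noradrenaline transporter, had 0 UMIs, where a limit of 3 counts is 0.167 CPM. Maoa, which degrades the transmitter, was N2a-low at 0.334 CPM against 48.3 and 33.8. Of 12 cholinergic genes 3 were compared and 2 were N2a-high, both nicotinic receptor subunits: Chrna3 at 157 CPM and Chrnb2 at 14.2, while Chat, the synthesising enzyme, had 0.223. Of 12 genes of other transmitters 11 were under the level compared, and the remaining gene, Tph2 at 28.2 CPM, was neither N2a-high nor N2a-low.

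Dense-core and synaptic vesicle genes were counted next. Of 16 granin and prohormone genes, 7 were N2a-high and none N2a-low, with a median log2 ratio of 4.99 and 4.95 over the 9 compared. Chgb led, followed by Vgf at 263 CPM against 8.98 and 1.62, and Scg2 had 30.7 CPM with 0 UMIs in both other lines. The list's Npy had 0.223 CPM and Vip and Penk 0 UMIs, and 6 of its 16 genes were under 1 CPM. Of 24 synaptic vesicle and release genes 19 were compared, with medians of 2.88 and 3.12, and 10 were N2a-high and none N2a-low. Sv2c, a vesicle glycoprotein, had 519 CPM against 0.684 and 25.4. Syt1, the calcium sensor of fast release, had 499 CPM against 19.3 and 3.65, and Snap25, of the fusion complex, 179 against 3.42 and 0.406.

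Of 24 neuronal cytoskeleton and growth cone genes 22 were compared, with medians of 3.17 and 2.32, and 9 were N2a-high and 13 neither. Map1b, a microtubule-associated protein of growing axons, had 1560 CPM against 304 and 113. Prph, the peripherin filament of peripheral neurons, had 305 CPM (wells between 235 and 376) against 1.97 and 5.03. Gap43 had 177 CPM and Ina 175. Several classical members were at or near 0: Nefl had 0.223 CPM, Nefm 0.111, Stmn2 0.334 and Dcx 0 UMIs, while mESC had 49.3 CPM of Nefl, 17.4 of Nefm and 162 of Stmn2. Of 14 neuronal RNA-binding protein genes 11 were compared, with medians of 4.54 and 3.55, and 7 were N2a-high, among them Celf4 at 201 CPM and Celf3 at 116. Elavl4 had 278 CPM and Elavl3 231, while Rbfox3, the source of the NeuN epitope, had 0.278. Of 24 ion channel genes 15 were compared, with medians of 3.61 and 2.52. Of these 1 was N2a-low and 8 were N2a-high, such as Cacna1b, an N-type calcium channel, at 63.8 CPM. Cacna1c had the highest level at 692 CPM, with 345 in NIH/3T3.

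Of 24 growth factor receptors 18 were compared, with medians of -0.36 and -0.10, and 5 were N2a-high and 3 N2a-low. Beside Alk the N2a-high genes included Ret, the GDNF receptor kinase, at 286 CPM against 1.28 and 2.76, its co-receptor Gfra1 at 327, and Ntrk3, the neurotrophin-3 receptor, at 215 against 1.28 and 10.5. Ntrk2, the receptor of brain-derived neurotrophic factor, had 0.111 CPM. Egfr was N2a-low at 0.0557 CPM against 17.9 and 6.09. Of 24 axon guidance and adhesion genes 14 were compared, with medians of 0.38 and 2.08, and 4 were N2a-high, led by Unc5c and Plxna4, and 3 N2a-low, among them the guidance ligand Slit2 at 0.501 CPM against 48.2 and 81.2.

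Of the proliferation lists, all 44 S phase genes were neither N2a-high nor N2a-low, and of 53 G2/M genes 1 was N2a-low, Cdc20 at 26.4 CPM against 136 and 126. Their median log2 ratios were 0.04 and -0.51 against NIH/3T3 and -0.44 and -0.80 against mESC. In the Myc network 1 of 17 genes compared was N2a-high: Lin28b, the RNA-binding protein that blocks let-7 processing, at 295 CPM against 2.56 and 24.6. Of 13 genes compared of the p53 axis and the CDK inhibitors, 1 was N2a-low, the p53 target Ccng1 at 24.1 CPM against 151 and 181. Over all genes compared the shares were 5.78% N2a-high and 3.63% N2a-low, so these few calls say nothing about the lists.

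Genes almost absent from N2a were also counted without a ratio. Of 7653 genes with at least 10 CPM in both other lines, 178 (2.33%) were under 1 CPM in N2a. The same count was 162 of 7676 for NIH/3T3 and 48 of 7777 for mESC. The 15 genes with the largest deficit were chosen for it, and in all 15 the highest N2a well was below the lowest well of both other lines. Dock1, a Rac activator, had only 12 N2a UMIs, a level of 0.668 CPM, where NIH/3T3 had 309 and mESC 332. Rai14, an actin-bundling protein, had 0.223 CPM against 202 and 187. Spp1, the secreted protein osteopontin, had 2.12 CPM against 464 and 795, and Myof, a membrane-repair ferlin, 0.557 against 710 and 190. Dyrk1a, a dosage-sensitive kinase, had 2 UMIs in all N2a cells, 0.111 CPM, against 130 and 223 CPM. Lpar1, Skap2, Glis3, Arhgap42, Kirrel and Rora followed with at most 0.557 CPM in N2a and at least 92.8 in either other line.

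Some of these genes were neighbours, a pattern looked for after the values were seen. Among genes with at least 10 CPM in both other lines, 14 runs of 2 or more in a row were under 1 CPM in N2a. The longest ran over 4 genes on chromosome 6 (chr6:51831208-52198834), from Skap2 through Hotairm1, Hoxa3 and Hoxa7, with 7 UMIs in N2a, 3043 in NIH/3T3 and 3294 in mESC. Its neighbours were expressed in N2a, Snx10 at 114 CPM and Hibadh at 90.8. Vps26c and Dyrk1a (chr16:94298587-94496380) together had 4 UMIs in N2a, 1890 in NIH/3T3 and 2960 in mESC. On either side Ttc3 had 433 CPM and Ets2 92.6 in N2a. Whether DNA is missing at these places was not tested, since only RNA was measured.

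Chromosomes differed in their median level. On chromosome 6 the median log2 ratio of N2a was 0.56 against NIH/3T3 and 0.25 against mESC over 573 genes, and on chromosome 8 it was 0.53 and 0.21 over 629 genes. Chromosome 12 was lower in N2a against both, at -0.48 and -0.22 over 425 genes, and so were chromosome 19 at -0.45 and -0.15, chromosome 4 at -0.20 and -0.28 and chromosome 9 at -0.15 and -0.22. Chromosome 15 stood at 0.04 against NIH/3T3 and 0.61 against mESC. Each ratio also carries the other line's own chromosome level, and the ratio of NIH/3T3 to mESC was -0.30 on chromosome 6 and 0.62 on chromosome 15. With genes at 10 CPM or more in all 3 lines, chromosomes 6 and 8 stood at 0.58 and 0.50 against NIH/3T3 and 0.22 and 0.18 against mESC. Chromosome 12 then stood at -0.52 against NIH/3T3 and -0.17 against mESC. Chromosome 16 turned from -0.01 to 0.02 against NIH/3T3, and chromosome X from -0.05 to 0.07 against mESC.

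**Figure D3:**
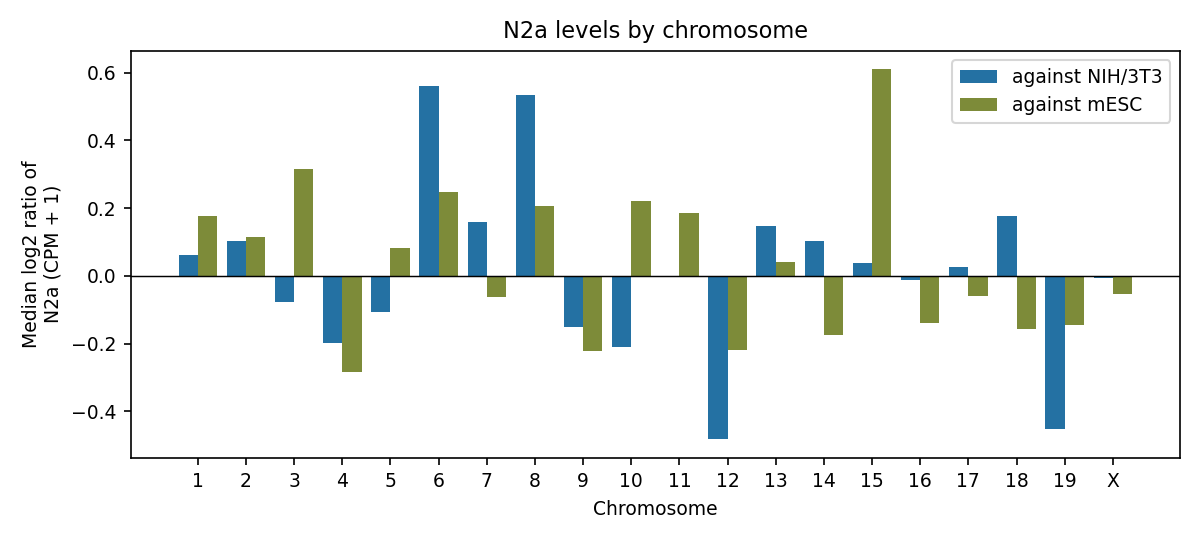
Bars give, for each chromosome, the median log2 ratio of CPM + 1 in N2a to NIH/3T3 (blue) and to mESC (green) over the genes compared. Chromosomes 6 and 8 are above 0.2 against both lines and chromosome 12 is below -0.2 against both. Chromosomes 1, 2, 13 and 15 are also above 0 and chromosomes 4, 9, 16, 19 and X below 0 against both.

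Windows of 10 consecutive genes were scanned for the runs that were furthest above or below both other lines. The highest run lay on chromosome 6 (chr6:47897410-48824005), from Zfp212 to Tmem176a, with medians of 1.88 against NIH/3T3 and 2.09 against mESC. Within it the spread was wide: Zfp467 had 30.0 CPM in N2a against 0.342 and 0.649, Atp6v0e2 59.3 against 6.50 and 7.71, and Zfp777 13.6 against 10.1 and 17.9. The next lay on the X chromosome (chrX:36345092-36854966) and held the Rhox homeobox cluster, with 1.85 and 2.69. Its Rhox2 genes are near-identical copies, so reads may be split among them and their levels are uncertain. The lowest run was again on chromosome 6 (chr6:51435248-52198834), the Hoxa cluster and Skap2, with -2.72 and -3.65. The next was on chromosome 11 (chr11:6560756-11988683), with -2.07 and -2.38, and included Tns3 at 0.835 CPM in N2a against 124 and 283, and the imprinted Grb10 at 0.334 against 248 and 44.6.

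Variation among N2a cells was measured after each cell was thinned to 1000 UMIs, as the Fano factor, the variance over the mean, which is 1 for pure counting noise. Of 4619 genes with a mean of at least 0.05 UMIs, 145 (3.14%) had a Fano factor of at least 1.2, and the median was 1.03. The count moved with the thinning setting, which also changed the cells and the genes tested. It was 375 of 6799 genes in 2070 cells thinned to 2000 UMIs, and 678 of 7965 genes in 1850 cells at 3000 UMIs. At 1000 UMIs the count was 139 of 4680 in NIH/3T3 and 165 of 4450 in mESC. Of the 145, 44 (30.3%) were N2a-high, against 321 (6.95%) of the 4619 genes, and 21 were N2a-restricted, against 79 of the 4619. Passing 1.2 went with level: 136 of the 145 were among the 2577 genes with a mean of at least 0.1 UMIs. The N2a-high and N2a-restricted rules select for level in N2a. These shares were not matched for level, so they do not show that such genes vary more among cells. Among 80 of them that reached the minimum mean in all 3 lines, 26 passed 1.2 in every line and 29 in N2a alone.

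Cmss1 had the largest Fano factor in N2a, 7.35, against 2.60 in NIH/3T3 and 1.81 in mESC, and Cdk8 had 6.16 against 2.84 and 2.18. Without 98 N2a cells of low depth (group 4 below) these values were 3.46 and 3.26, below Pde10a at 4.11 and close to mt-Cytb at 3.26. Pde10a followed with 4.25 at a mean of 3.70 UMIs per thinned cell. In the other lines Pde10a was too low to compare. Mitochondrial transcripts came next, with mt-Cytb at 3.58, mt-Co3 at 2.92 and mt-Atp6 at 2.82, against 2.42, 3.30 and 3.37 in NIH/3T3 and 2.15, 4.68 and 2.98 in mESC. Of the genes that mark N2a, Gm30835 had 1.89, Unc5c 1.78, Cntn3 1.62 and Dlc1 1.61. Acer3, an alkaline ceramidase, had 1.63, and the linker histone H1f5, made in S phase, 1.60. Malat1 varied less in N2a, at 1.65, than in NIH/3T3 at 3.82 and mESC at 2.30, where its level was higher.

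**Figure D4:**
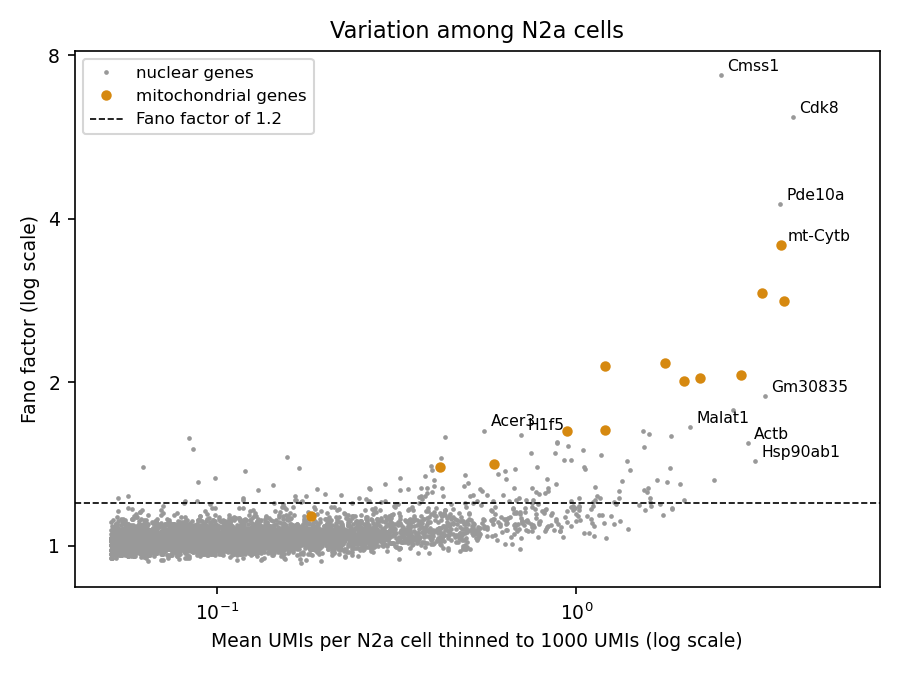
Each point is a gene, with its mean UMIs per N2a cell thinned to 1000 UMIs and its Fano factor, both on log scales; orange points are mitochondrial genes and the dashed line is a Fano factor of 1.2. Cmss1 (7.35), Cdk8 (6.16) and Pde10a (4.25) are highest, and without 98 cells of low depth they stand at 3.46, 3.26 and 4.11.

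Clustering of the 2323 cells gave 4 groups, named here by number. With variable genes picked from raw counts, an alternative added after seeing the data, there were 2 groups, of 1280 and 1043 cells, with 629 and 76.3 CPM of Slc47a1. Genes that lead a group also helped to form it, so their levels describe the groups and test nothing. Group 1 held 858 cells (36.9%, exact binomial 95% interval 35.0 to 38.9), group 2 held 737 (31.7%, 29.8 to 33.7), group 3 held 630 (27.1%, 25.3 to 29.0) and group 4 held 98 (4.22%, 3.44 to 5.12). Every group had cells in all 32 wells. Group 1 made up between 27.1% and 45.7% of a well, group 2 between 21.1% and 40.6% and group 3 between 19.5% and 38.6%. Doublets were not called, and pairs of N2a cells in 1 capsule would go unseen.

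Group 1 was low in dividing-cell genes. Top2a, the topoisomerase of dividing cells, had 166 CPM in group 1 and 1196, 1288 and 1414 in groups 2 to 4, and the whole G2/M list summed to 4576 CPM against 9368, 10978 and 11415. The S phase list summed to 4191 CPM in group 1, 6952 in group 2, 5126 in group 3 and 4664 in group 4. Abca1, a cholesterol exporter, was higher in group 1 at 211 CPM against 97.5 in the rest, as was Mxd4, a Myc antagonist, at 39.9 against 17.4.

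Groups 2 and 3 were both high in Top2a, and differed in the S phase sum and in a set of other genes. They also differed in depth, with medians of 7687 UMIs in group 2 and 6056 in group 3, and the part of depth in their differences was not tested. Slc47a1, an organic cation exporter, had 709 CPM in group 2, 70.0 in group 3 and 357 in group 1. Its neighbour and relative Slc47a2 had 408, 7.53 and 106 CPM. Acer3 had 1007, 94.3 and 506 CPM, Dcdc2a, a doublecortin-domain protein, 756, 63.9 and 414, and Esr1 670, 84.5 and 381. Pecam1 followed with 173, 21.4 and 69.5 CPM, and the integrin Itgam with 48.3, 1.02 and 5.22. The noncoding Gm26862 led group 2 with 173 CPM against 17.1 in the other cells. Among genes with at least 30 CPM in the other cells, the lowest ratio in group 2 was that of 9530059O14Rik, at 97.8 CPM against 255 in the rest. Of the 5 markers, Hand2 had 363 CPM in group 2 and 455 in group 3, Syt6 416 and 590, Phox2a 121 and 123, Chgb 302 and 283, and Tubb3 234 and 224. Pde10a had 4426 and 1534 CPM, and Gm30835 4134 and 2091. Cenpf and Aspm, mitotic genes among those leading group 3, had 491 and 254 CPM there and 288 and 144 in group 2. Group 4 had 509 and 198 CPM of them. The whole G2/M list differed less, with sums of 10978 CPM in group 3 and 9368 in group 2.

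Without the S phase and G2/M genes the cells fell into 3 groups of 1267, 965 and 91. The first had 633 CPM of Slc47a1, 897 of Acer3 and 611 of Esr1, and the second 66.5, 94.5 and 94.4. Their Top2a levels were 834 and 939 CPM, and their median depths 7188 and 5470 UMIs. Read without any clusters, the 818 thinned cells with a UMI of Slc47a1 or Slc47a2 had 928 CPM of Acer3, 736 of Dcdc2a and 617 of Esr1, and the 1505 without had 351, 262 and 274. These genes were chosen after their values were seen. Hand2 had 353 and 449 CPM in the same cells. Slc47a1 as a whole had 409 CPM in N2a, 1.03 in NIH/3T3 and 6.01 in mESC.

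Group 4 stood apart in depth. Its median was 1794 UMIs and 1124 genes, against 5477 UMIs and 2900 genes in group 1. Its cells differed widely in mitochondrial share, with a median of 0.453%, quartiles of 0% and 3.46% and a highest value of 16.6%. Summed over its cells the share was 2.73%, beside 2.46% in group 1. Its first leading gene was Cmss1, at 11726 CPM against 1808 in the other N2a cells. Il31ra followed at 147 CPM against 22.7, from 34 UMIs in group 4, and then Cdk8 at 14153 against 2939. Pde10a was low at 241 CPM, Alk at 177 and Unc5c at 517, while Map1b was higher than in the other groups, at 2065 CPM against 1335 to 1759. Neat1 and Sox2ot had 0 UMIs among 231972. Of the 5 markers, Hand2 (604 CPM, interval 508 to 712) and Tubb3 (272, 209 to 347) were above their levels in groups 1 to 3. Phox2a (112, 73.2 to 164), Chgb (211, 156 to 279) and Syt6 (375, 300 to 463) were below them. The counting intervals of Tubb3 and Phox2a covered their levels in groups 1 to 3, and that of Syt6 its level in group 2. Without these cells the Fano factor of Cmss1 was 3.46 and that of Cdk8 3.26, and 123 genes passed 1.2. Group 4 is left unnamed, and the part of depth in its profile was not tested.

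**Figure D5:**
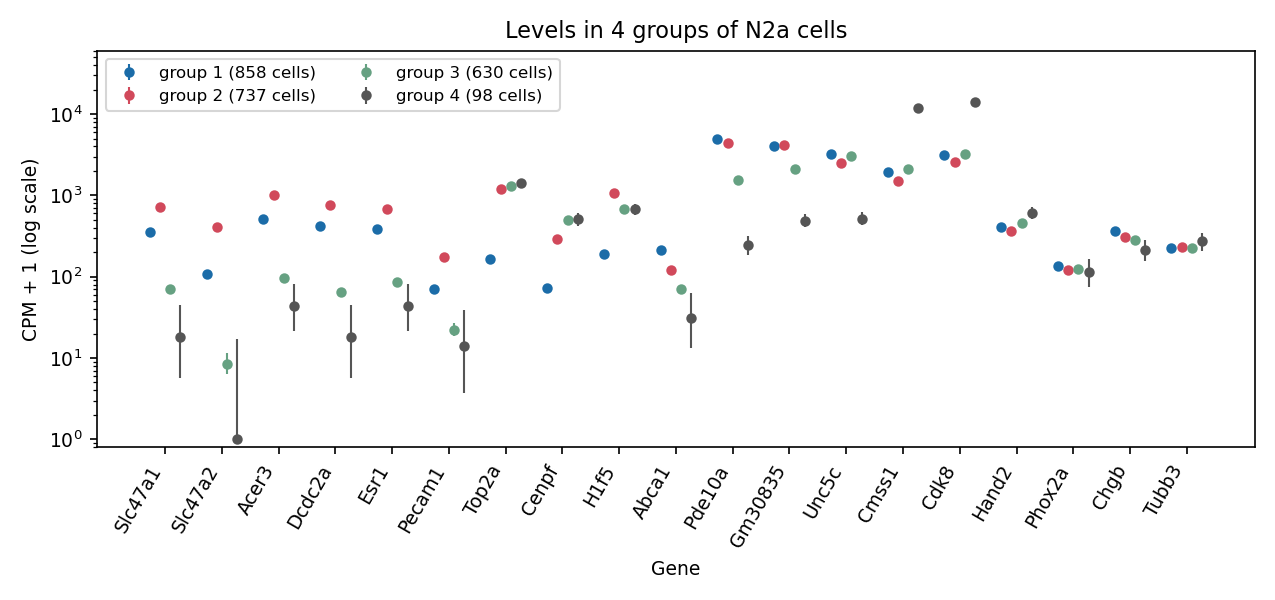
Points give CPM + 1 on a log scale for 19 genes in the 4 groups of N2a cells, with exact Poisson 95% intervals for counting error. Slc47a1 to Pecam1 are highest in group 2 and lower in group 3, Cmss1 and Cdk8 are highest in group 4, and Phox2a and Tubb3 differ least.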

How the data were processed

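Capsules were barcoded by split-pool rounds, and the authors split reads by BC1 before making a matrix for each line. The deposited values are whole-number counts of UMIs per gene and barcode, which the authors made with STARsolo on GRCm39 with GENCODE M30. Whether introns or strand were counted is not given in the sources used here. Every matrix lists 33565 genes, of which 32953 were found in the later GENCODE M39 annotation of GRCm39, used for positions, lengths and promoters. The deposited barcode lists hold 884736 entries, most without UMIs.

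Cells were kept at 1000 UMIs or more and at most 20% mitochondrial UMIs, as in the study. UMIs were summed over the cells of a line and divided by their total to give CPM. Groups came from the sample labels. With 1 sample a line no test was run, and ratios used CPM + 1. Intervals are exact at 95% and cover counting error only; 3 counts, the limit for a gene with 0 UMIs, are 0.167 CPM in N2a, 0.256 in NIH/3T3 and 0.243 in mESC. Variable genes for clustering (150, standardized variance with a loess fit in R), z-scores, 50 principal components, 100 neighbors and Leiden clustering at a resolution of 0.5 followed the study's steps where stated; the clustering itself was added. Leading genes of a group had at least 30 CPM and were ranked on CPM + 5.

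Genes were named by fixed rules: the 15 most abundant in N2a and the 3 highest mitochondrial and ribosomal genes, the 25 largest and 15 smallest ratios among genes with at least 50 CPM, the 20 largest Fano factors, the highest and most different members of each of 29 lists, the markers, and the chromosome runs. Members, lists and rules were chosen with earlier results of these data known. Genes beyond the rules, in the lists, runs and groups, were named after their values were seen. Some list members are not reported here. The pooled matrix served as an alternative only. Scripts were tested on simulated data. Alternatives changed the cell filter, the scaling, the pseudocount, the level and ratio limits, the thinning depth and the clustering settings. Clustering used leidenalg 0.10.2, the loess fit R 4.3.3, and all else Python 3.11.15 with pandas 2.3.3, scipy 1.17.1 and numpy 2.4.6.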

Additional observations from a re-analysis of the deposited data

How the results depend on the processing

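The counts of N2a-high, N2a-low and N2a-restricted genes stayed within 1.5 times under other cell filters, all barcodes, the pooled matrix and each scaling (650 to 674, 410 to 430 and 69 to 81 genes). A pseudocount of 5 CPM left 210 N2a-low and 23 N2a-restricted genes and kept 20 of the 25 genes with the largest ratio, and one of 0.1 CPM kept 15. A minimum of 50 CPM left 328 N2a-high and 253 N2a-low genes, a ratio of 2 times gave 1207 and 875, and a ratio of 10 times 338 and 215. A minimum of 500 UMIs gave 2577 N2a cells and one of 2000 UMIs 2070. Of the 15 most abundant genes 7 stayed when ranked per kb. Thinning to 2000 UMIs called 375 of the 6799 genes then tested in 2070 cells, and to 3000 UMIs 678 of 7965 in 1850 cells. Picking variable genes from raw counts, an alternative added after seeing the data, gave 2 cell groups in place of 4, of 1280 and 1043 cells. The median log2 ratio of chromosome 6 to NIH/3T3 was 0.50 with median-of-ratios size factors and 0.51 with totals without mitochondrial and ribosomal genes, both added after seeing the data. No paired analysis was possible because each line had 1 sample. Counting intervals do not cover the spread between cultures.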

Other observations

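Lists outside the neuronal programme are given beside 5.78% N2a-high and 3.63% N2a-low over all genes compared. Of 24 imprinted genes, 15 were compared, of which 4 were N2a-high and 2 N2a-low: Peg3 had 682 CPM in N2a against 22.6 in NIH/3T3 and 48.5 in mESC, and Mest 626 against 1.71 and 71.5, while Plagl1 had 0.334 against 39.2 and 123. H19 had 0.167 CPM and Igf2 0 UMIs. Of 20 interferon and MHC class I genes listed, 10 were compared and 2 were N2a-high. These were Psmb8 at 24.9 CPM against 0.0855 in NIH/3T3 and 0.325 in mESC, and H2-K1 at 60.8 against 0.256 and 5.28. The related H2-D1 went the other way against NIH/3T3, with 74.8 CPM in N2a, 208 in NIH/3T3 and 4.22 in mESC. Why H2-K1 and H2-D1 differed in NIH/3T3 was not tested. B2m, the light chain of MHC class I, had 202 CPM in N2a, 461 in NIH/3T3 and 22.1 in mESC. Of 18 glycolysis genes compared, Ldhb (0.557 CPM against 43.0 and 75.0) and Pdk1 were N2a-low. None of 20 cholesterol genes, all compared, was called in either direction. Of 20 immediate early and stress genes compared, 1 was N2a-high, Egr1 at 202 CPM against 30.9 and 6.09. Of 15 noncoding RNAs compared, 2 were N2a-high, Xist and Snhg14, the latter at 183 CPM.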
